A study of Mus musculus with 47 samples.

Results

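Microglia are the resident macrophages of the brain, and 34 genes known for microglial identity, complement, phagocytosis and the lysosome were followed through the cerebral cortex of 47 mice. The genes were taken by symbol from the deposited tables, which list 48795 genes. All 34 symbols were found, on 35 rows, because Itgam has a second row with almost no counts that was not used. All 34 genes were among the 19174 genes that passed the filter on low counts.

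The mice were 6 months old, labelled C57BL, and fell into 6 genotypes. WT mice carried neither change. Ccdc82+/- and Ccdc82-/- mice lacked 1 or both working copies of Ccdc82, which encodes a coiled-coil protein, and the labels name no tissue to which the loss is limited. Q140 mice were labelled heterozygous knock-in, with an expanded CAG repeat placed into 1 copy of Htt, the Huntington's disease gene. Q140 Ccdc82+/- and Q140 Ccdc82-/- mice carried that allele together with the loss of Ccdc82. Each genotype held 4 females and 4 males, except Q140 Ccdc82-/- with 3 females and 4 males. The crosses ask whether losing Ccdc82 changes cortical gene expression with or without the Q140 allele.

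Between 43554594 and 61370843 reads were counted per library, with a median of 50473683. Ccdc82 itself was lower with each lost copy, at 16.2 ± 1.58 CPM (SD, n = 8) in WT, 10.9 ± 0.962 in Ccdc82+/- and 5.32 ± 0.595 in Ccdc82-/-, and the 3 ranges did not overlap. Reads still fell on the gene in Ccdc82-/- mice, and the labels do not name the part of the gene that was lost. Xist and a Y-linked gene matched the labelled sex in 47 of 47 libraries. CPM are read counts scaled to library size (TMM), and compare 1 gene between mice. FPKM also divide by gene length, and compare genes with each other. An order of genes in FPKM therefore rests also on the length used for each gene.

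Microglia depend on a signal through the CSF1 receptor for survival and hold contact with neurons through purine and fractalkine receptors. They tag synapses and debris with complement C1q, take up what is tagged through TREM2, Fc and MERTK receptors, and digest it in lysosomes rich in cathepsins. Activated microglia are known from the brains of people with Huntington's disease.

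The genes differed widely in level. Cst3, the secreted cathepsin inhibitor cystatin C, was the most abundant at a median of 381 FPKM over the 47 libraries (range 340 to 509). It was followed by Ctsd, the lysosomal protease cathepsin D, at 72.1 FPKM (65.4 to 81.2), and by Ctss, the protease cathepsin S, at 33.4 FPKM (28.6 to 37.2). Astrocytes and neurons are known to make much of the first 2, so their level in whole cortex is not that of microglia alone.

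The complement genes were the next most abundant group. C1qa, C1qb and C1qc encode the 3 chains of C1q, which starts the classical complement pathway, and had medians of 29.2, 21.9 and 15 FPKM. Itgam, the alpha chain of complement receptor 3, was far lower at 1.2 FPKM. Each chain of C1q was thus above Itgam in every library, with lowest values of 24.4, 18.7 and 13.2 FPKM against a highest of 1.45 FPKM.

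Identity receptors lay in the middle. Csf1r, the receptor that keeps microglia alive, had a median of 15.9 FPKM, P2ry12, the purine receptor that guides their processes, 12.7 FPKM, Cx3cr1, the fractalkine receptor, 10 FPKM, and Tmem119, a surface marker of unknown function in microglia, 6.71 FPKM. P2ry6, a receptor for uridine nucleotides that triggers engulfment, was the lowest of the 34 genes at 0.533 FPKM (0.402 to 0.694). Even there the counts lay between 58 and 101 per library, so every gene was detected in every mouse.

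Of the receptors for uptake, Mertk, which binds dying cells, had a median of 11.4 FPKM, and Trem2, the lipid receptor of microglia, 1.73 FPKM. Tyrobp, the signalling adaptor that TREM2 needs, had 9.55 FPKM. Trem2 had more reads than Tyrobp, at median counts of 429 and 323 per library, so their order in FPKM comes from the length used. Among the transcription factors, Sall1, which holds the microglial programme, had 4.43 FPKM, Spi1 (PU.1, which sets the myeloid lineage) 0.846 FPKM and Irf8 0.579 FPKM. Mertk is known in astrocytes and Sall1 in other brain cells as well.

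**Figure D1:**
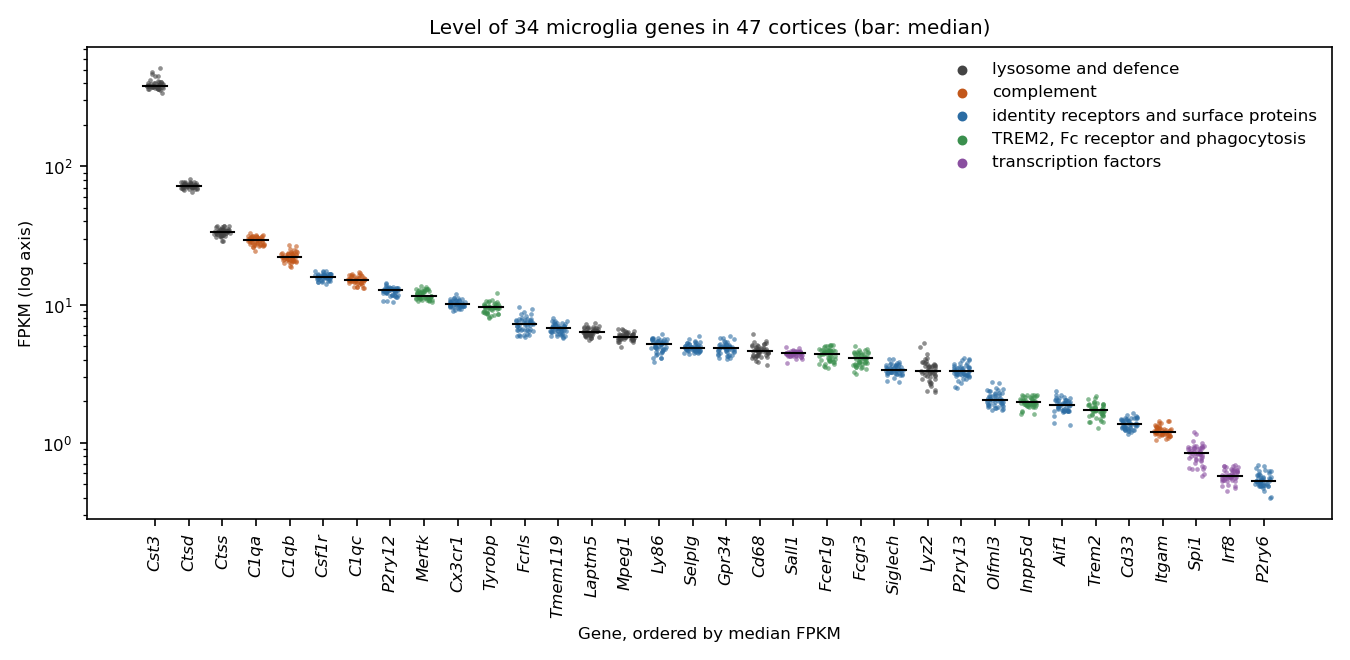
FPKM (log axis) of the 34 genes in single libraries, ordered by median and coloured by role, with a bar at the median of the 47 libraries. The medians run from 381 FPKM for Cst3 to 0.533 FPKM for P2ry6, and the spread over mice of each gene is small beside the differences between genes.

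Levels were steady between mice of a genotype. The coefficient of variation of CPM within genotypes lay between 4.24% (Sall1) and 15.7% (Spi1), with a median of 8.2% over the 34 genes. Lyz2, the lysozyme of macrophages, varied almost as much as Spi1, at 15.6%.

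The sequences before the transcription start are shown for 4 genes that the results below turn on: C1qb and C1qc, which varied together between mice, Ctss, the gene called with Q140, and Olfml3, a secreted protein of the olfactomedin family that was higher in females. They were chosen after the values were seen. RefSeq promoter entries on GRCm38.p6 were found for 26 of the 34 genes. The bases printed precede the start, leaving out any base in an annotated exon, 5′ to 3′ on the gene's strand. Capitals mark GAGGAA or its reverse complement, the purine-rich core of the site bound by PU.1.
C1qb (chr4:136886201-136886450, minus strand): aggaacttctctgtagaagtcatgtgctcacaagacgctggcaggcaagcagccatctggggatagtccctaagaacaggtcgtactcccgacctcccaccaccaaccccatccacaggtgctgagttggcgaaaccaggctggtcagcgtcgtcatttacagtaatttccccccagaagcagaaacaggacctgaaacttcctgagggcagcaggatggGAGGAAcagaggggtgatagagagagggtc
C1qc (chr4:136893066-136893164, minus strand): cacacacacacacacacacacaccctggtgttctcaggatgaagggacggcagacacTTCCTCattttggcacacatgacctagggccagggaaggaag
Ctss (chr3:95526536-95526785, plus strand): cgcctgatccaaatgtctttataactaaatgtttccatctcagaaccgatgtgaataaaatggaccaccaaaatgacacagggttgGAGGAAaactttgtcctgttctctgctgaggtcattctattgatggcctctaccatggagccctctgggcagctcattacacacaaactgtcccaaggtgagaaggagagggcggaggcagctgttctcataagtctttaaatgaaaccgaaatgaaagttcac
Olfml3 (chr3:103738002-103738251, minus strand): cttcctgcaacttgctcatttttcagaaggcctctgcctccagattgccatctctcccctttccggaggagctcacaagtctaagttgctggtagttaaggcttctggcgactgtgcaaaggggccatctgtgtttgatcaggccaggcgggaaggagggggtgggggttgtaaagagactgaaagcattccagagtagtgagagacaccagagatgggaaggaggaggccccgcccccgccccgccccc

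Each motif was searched on both strands of the 250 bases before the start. The longer PU.1 box GAGGAAGT was found at 2 of the 26 genes (C1qc and Inpp5d) and in 2.44% of 32851 promoters. Its core GAGGAA, which lies inside the longer box and was added after that box gave few matches, was found at 14 of the 26 genes and in 23.3% of all promoters. The composite element of PU.1 and IRF factors was found at 0 of the 26 genes and in 2.3% of promoters, and the palindromic oestrogen response element at 0 of the 26 and in 0.0213%. A match to these letters is a description and not a sign that a factor binds there, and a gene without a match lacks only these letters in this window.

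The Q140 allele went with a small rise of 1 microglia gene. Averaged over the 3 Ccdc82 genotypes, 1 of 34 genes was called in edgeR, Ctss, which was higher, and 27 of the 34 had values above 0. Over all genes tested, 0.876% were called, 65 higher (0.339%) and 103 lower. The median change of the 34 genes was 0.016 on the log2 scale, beside 0.00085 over all 19174 genes, of which 51.0% were above 0. At an unadjusted p under 0.05 there were 7 of 34, beside 9.18% of all genes. Each sample was whole cortex, so more cells of a type and more RNA per cell cannot be told apart here or below.

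Ctss encodes cathepsin S, a lysosomal protease that stays active outside the cell and trims the invariant chain in antigen presentation. It lies on chromosome 3, 95526786 to 95556403 (GRCm38, plus strand), with its promoter shown above. Its level ran from 38.9 to 49.3 CPM (median 44) in the 24 mice without Q140 and from 42.3 to 50.1 CPM (median 46.3) in the 23 mice with it. The ranges overlapped over most of their length. The fitted rise was 0.08 on the log2 scale (SE 0.0202, edgeR adjusted p = 0.0369), or 5.64%, and 18 of the 23 mice with Q140 lay above the control mean of their own Ccdc82 genotype and sex.

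By genotype, Ctss ranged from 41.7 to 46.1 CPM (median 43.5) in WT and from 42.3 to 50.0 CPM (median 47.8) in Q140. It ranged from 42.7 to 49.3 CPM (median 45.7) in Ccdc82+/- and from 45.2 to 50.1 CPM (median 46.2) in Q140 Ccdc82+/-. In Ccdc82-/- it ranged from 38.9 to 48.0 CPM (median 43.2) and in Q140 Ccdc82-/- from 44.2 to 47 CPM (median 45.7). The ranges overlapped in each of these pairs. The fitted differences were 0.11, 0.04 and 0.08 on the log2 scale, and none was called alone (edgeR adjusted p = 0.356, 0.999 and 1).

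The values of Ctss in females and males were also set side by side. Male Ctss ranged from 43.2 to 46.1 CPM in WT against 47.5 to 50.0 in Q140, and from 38.9 to 43.7 CPM in Ccdc82-/- against 45.7 to 47 in Q140 Ccdc82-/-, with no overlap in either pair. Ctss was picked by the Q140 test on these same mice. The share of all genes without overlap in such a pair was not counted, so nothing is read from this. Male Ccdc82+/- mice overlapped with their Q140 counterparts, at 42.7 to 49.3 against 46.0 to 50.1 CPM. The female ranges overlapped in all 3 pairs. The female mean was lower with Q140 in 1 pair, at 45.5 CPM in Ccdc82-/- against 45.0 CPM in Q140 Ccdc82-/-. The Q140 effect in females minus that in males was -0.10 (SE 0.0345, unadjusted p = 0.00718, edgeR adjusted p = 1), so a difference between the sexes did not pass the test.

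**Figure D2:**
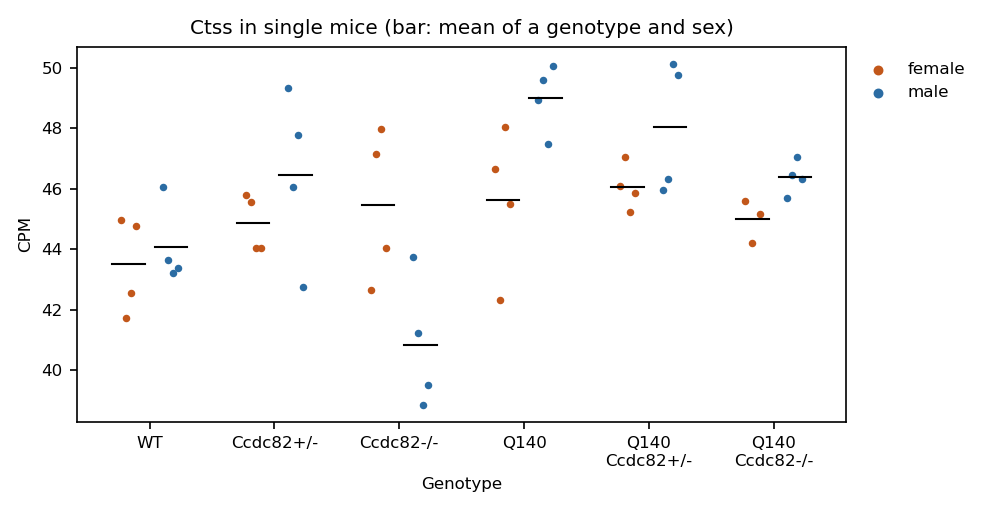
Ctss in CPM (vertical axis, not starting at 0) in single mice by genotype, females in orange and males in blue, with a bar at the mean of each genotype and sex. Mean levels in males were 44.1 CPM in WT and 49.0 CPM in Q140, and 40.8 CPM in Ccdc82-/- and 46.4 CPM in Q140 Ccdc82-/-. Male means were 46.5 CPM in Ccdc82+/- and 48.0 CPM in Q140 Ccdc82+/-. Female means were 43.5 CPM in WT and 45.6 CPM in Q140, and 44.9 CPM in Ccdc82+/- and 46.1 CPM in Q140 Ccdc82+/-. In Ccdc82-/- the female mean was 45.5 CPM, and in Q140 Ccdc82-/- it was lower, at 45.0 CPM.

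The call of Ctss was close to the threshold. With plate row in the fit the adjusted p was 0.091, and without the filter on low counts it was 0.05, just over the threshold before rounding. The change itself stayed between 0.0715 and 0.0873 when each library was left out in turn. The call was lost without any 1 of 18 libraries. In WT these were female 2 and males 2, 3 and 4 (adjusted p = 0.0579, 0.0508, 0.0527 and 0.0545), in Ccdc82+/- females 3 and 4 and male 4 (0.0537, 0.0563 and 0.0644), and in Ccdc82-/- males 2, 3 and 4 (0.0596, 0.0597 and 0.0652). In Q140 they were female 3 and males 1, 2 and 4 (0.0518, 0.0514, 0.0588 and 0.0563), in Q140 Ccdc82+/- males 3 and 4 (0.0601 and 0.0572), and in Q140 Ccdc82-/- female 1 and male 3 (0.0505 and 0.0568).

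None of the other 33 genes was called with Q140. Next in order of p came Mpeg1, the pore-forming perforin-2 of macrophages, with a range of 21.5 to 27.4 CPM (median 24.9) without Q140 and 24.0 to 28.8 CPM (median 26.3) with it. The difference was 0.06 (SE 0.0203, edgeR adjusted p = 0.277). Laptm5, a lysosomal membrane protein of haematopoietic cells, ranged from 21.2 to 26.4 CPM (median 23.6) without and from 22 to 27.4 CPM (median 24.4) with Q140, a difference of 0.06 (SE 0.0249, adjusted p = 0.417). Both genes thus overlapped between the groups over most of their range.

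Identity genes stood near their control levels. Tmem119 had a median of 15.5 CPM without Q140 (13.2 to 17.1) and 16 CPM with it (13.6 to 18.7), a difference of 0.07 (SE 0.0321, edgeR adjusted p = 0.491). Csf1r differed by 0.04 (SE 0.0198, adjusted p = 0.542), Cx3cr1 by 0.03 (SE 0.0233) and P2ry12 by 0.01 (SE 0.0269). Aif1, the IBA1 protein used to stain microglia, had medians of 2.75 and 3.01 CPM and differed by 0.10 (SE 0.0463, adjusted p = 0.48). Of the 14 identity receptors and surface proteins, 12 had values above 0, with a median of 0.015 and 0 called.

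The uptake and complement genes showed no call either. C1qa, C1qb and C1qc differed by 0.04, 0.02 and 0.02 (SE 0.0266, 0.0301 and 0.0269). Trem2 had medians of 8.69 CPM without and 8.35 CPM with Q140, a difference of -0.04 (SE 0.0427), while Tyrobp had medians of 6.03 and 6.43 CPM, a difference of 0.07 (SE 0.0351, edgeR adjusted p = 0.602). Tyrobp was above the control mean of its own Ccdc82 genotype and sex in 20 of 23 mice with Q140, more than Ctss, although its change was not called. Fcer1g, the signalling chain of Fc receptors, differed by 0.00 (SE 0.0457).

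Of the transcription factors, Sall1 differed by 0.04 (SE 0.0190, edgeR adjusted p = 0.469), Irf8 by 0.05 (SE 0.0437) and Spi1 by 0.00 (SE 0.0654). Of the other lysosomal genes, Ctsd differed by 0.00 (SE 0.0154), Cd68, the macrosialin of phagocytes, by -0.01 (SE 0.0421) and Cst3 by -0.04 (SE 0.0295). Cst3, Trem2, Cd68, Fcer1g, Mertk, Gpr34 and P2ry13 were the 7 genes with values below 0.

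**Figure D3:**
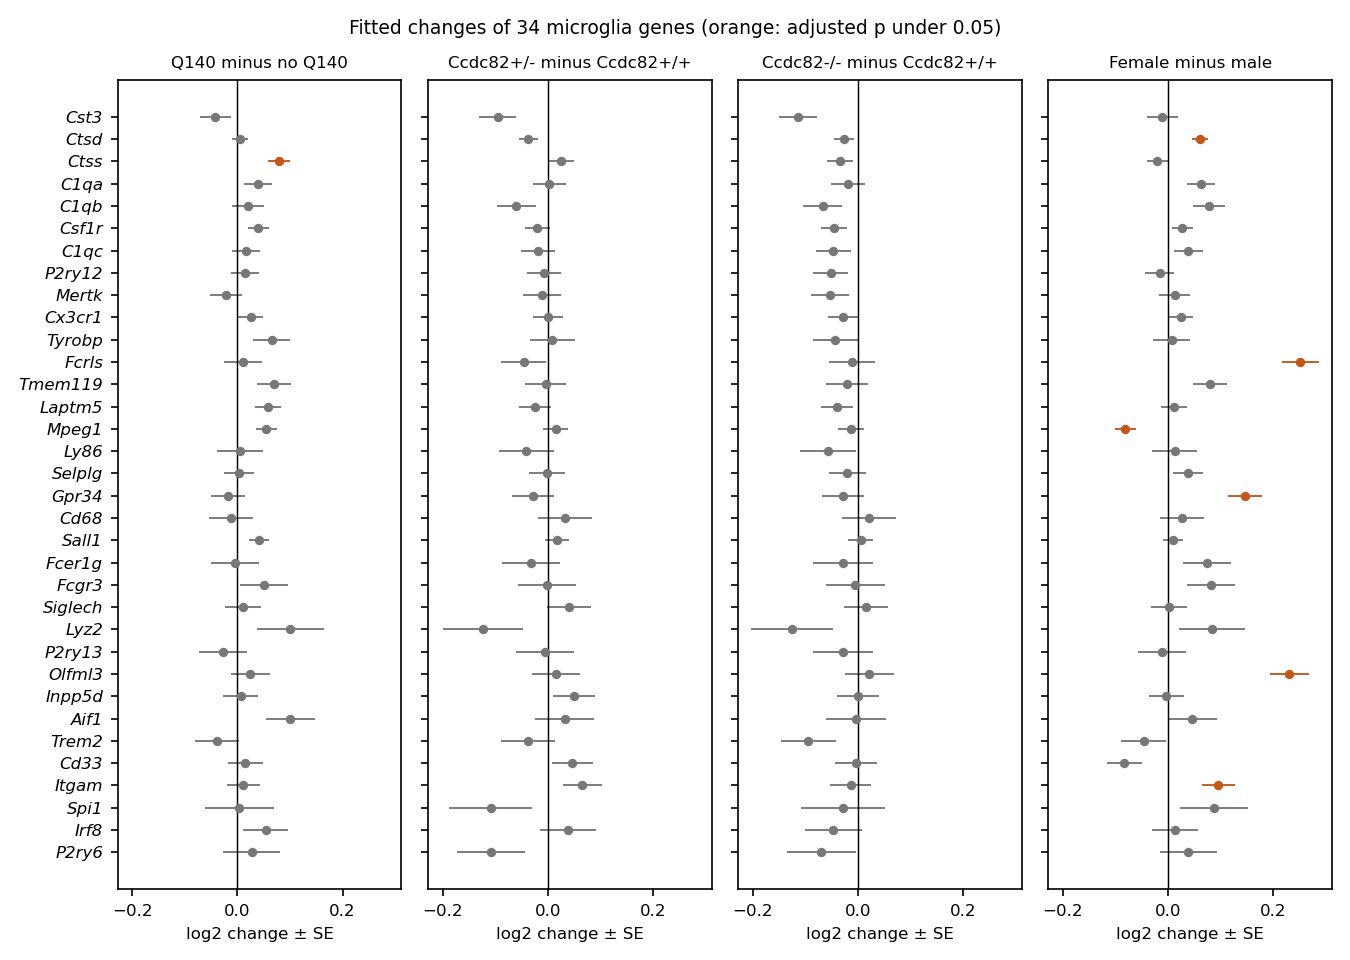
Fitted log2 change with its SE (horizontal axes) of the 34 genes, ordered by level, for Q140, Ccdc82+/-, Ccdc82-/- and females against males, each averaged over the other factors, with called genes in orange. Ctss is called with Q140, no gene with either Ccdc82 genotype, and 6 genes differ between the sexes.

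Markers of other cells were counted beside these genes. Those of border-associated macrophages, which line vessels and meninges and share many microglia genes, had values above 0 for 11 of 12 genes, with a median of 0.086 and 0 called. Their summed level ranged from 3.77 to 6.91 FPKM in WT and from 5.98 to 6.97 FPKM in Q140, and Folr2 was at a median count of at most 10. The median of this sum was higher with Q140 in each pair, while the ranges overlapped. It was 5.71 FPKM in WT against 6.56 in Q140, and 5.27 in Ccdc82+/- against 5.72 in Q140 Ccdc82+/-. In Ccdc82-/- the median was 5.1 FPKM against 5.64 in Q140 Ccdc82-/-. The sum ranged from 4.01 to 7.23 FPKM in Ccdc82+/- against 3.53 to 6.19 in Q140 Ccdc82+/-. In Ccdc82-/- it ranged from 4.61 to 6.32 FPKM against 4.57 to 6.41 in Q140 Ccdc82-/-. Meningeal fibroblast markers were above 0 for 5 of 5 genes, with 0 called, and their sum ranged from 5.32 to 9.04 FPKM in WT and from 6.41 to 10.6 FPKM in Q140. It ranged from 4.62 to 9.54 FPKM in Ccdc82+/- against 4.15 to 8.48 in Q140 Ccdc82+/-. In Ccdc82-/- it ranged from 4.32 to 8.84 FPKM against 5.81 to 10.7 in Q140 Ccdc82-/-. Neuron markers were above 0 for 0 of 5 genes, and Rbfox3, the NeuN protein used to stain neurons, was called lower at -0.07 (SE 0.0141, edgeR adjusted p = 0.00701). The lymphocyte marker Cd4 was also called lower, at -0.39 (SE 0.101, adjusted p = 0.0417). The part of these cells in the rise of Ctss was not tested. All 10 markers of monocytes and neutrophils were at a median count of at most 10, and their sum stayed at or below 0.484 FPKM in every mouse.

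Loss of Ccdc82 gave no call among the microglia genes. Averaged over mice with and without Q140, 0 of 34 genes were called in Ccdc82-/- and 0 in Ccdc82+/-, where 0.00522% of all genes were called in each. At an unadjusted p under 0.05 there was 1 of 34 in each average, beside 4.65% and 5.31% of all genes, and DESeq2 called 0. In Ccdc82-/- 5 of 34 genes had values above 0, with a median of -0.028 (all genes 49.2% above 0, median -0.00069). In Ccdc82+/- 14 of 34 were above 0, with a median of -0.0042 (all genes 49.5% above 0, median -0.00051).

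Cst3 had the smallest p in both averages. Its median CPM was 510 in WT (458 to 641), 483 in Ccdc82+/- (463 to 517) and 496 in Ccdc82-/- (468 to 572). With Q140 its median was 494 (466 to 599), 475 (459 to 539) in Q140 Ccdc82+/- and 467 (433 to 482) in Q140 Ccdc82-/-. The lower end of the range was similar in WT, Ccdc82+/- and Ccdc82-/-, and the highest single values stood in WT and Q140. The averaged differences were -0.10 in Ccdc82+/- (SE 0.0357, unadjusted p = 0.0108, edgeR adjusted p = 0.905) and -0.11 in Ccdc82-/- (SE 0.0364, unadjusted p = 0.00333, adjusted p = 1). Both averages share the mice with 2 working copies of Ccdc82.

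Ctsd had a difference of -0.04 in Ccdc82+/- (SE 0.0186, edgeR adjusted p = 0.905), and Itgam one of 0.07 (SE 0.0377, adjusted p = 0.905). In Ccdc82-/- the next 2 genes after Cst3 were Csf1r at -0.05 (SE 0.0244, adjusted p = 1) and C1qb at -0.07 (SE 0.0371, adjusted p = 1). All 4 complement genes had values below 0 in Ccdc82-/-, between -0.067 and -0.014. Astrocyte and endothelial markers were also all below 0, at medians of -0.049 over 5 genes and -0.023 over 4, as were the 5 of red blood cells (median -0.52) and the 5 of meningeal fibroblasts (median -0.086), and border-associated macrophage markers for 11 of 12, at a median of -0.12. This was not particular to Ccdc82-/-, but both averages are set against the same WT and Q140 mice and are not independent. In Ccdc82+/- astrocyte, endothelial and meningeal fibroblast markers were above 0 for 0 genes as well, at medians of -0.050, -0.070 and -0.16. Border-associated macrophage markers were above 0 there for 1 of 12 (median -0.16), and red blood cell markers for 1 of 5. Neuron markers were above 0 for 3 of 5 genes in Ccdc82-/- and for 2 of 5 in Ccdc82+/-. The part of these cells in the values of the microglia genes was not tested.

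The single genotypes were compared as well. In Ccdc82+/- and Ccdc82-/- against WT, and in Q140 Ccdc82+/- and Q140 Ccdc82-/- against Q140, 0 of 34 genes were called, and DESeq2 called 0. An unadjusted p under 0.05 was found for 1, 0, 3 and 4 of them, beside 3.6%, 3.23%, 5.42% and 4.09% of all genes. In all genes 0.00522% were called in each of these. Lyz2 had the largest difference, at -0.31 in Q140 Ccdc82+/- against Q140 (SE 0.108, unadjusted p = 0.00615, edgeR adjusted p = 0.902). Its level ranged from 3.86 to 6.56 CPM (median 4.69) in Q140 and from 3.04 to 4.76 CPM (median 4.03) in Q140 Ccdc82+/-, so the lower mice of Q140 lay within the other group.

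Whether Q140 acts differently on each Ccdc82 genotype was tested as an interaction. It was called for 0 of 34 genes with Ccdc82+/- and for 0 with Ccdc82-/-, beside 0.0% of all genes, and DESeq2 called 0. An unadjusted p under 0.05 was found for 2 and 0 genes, beside 3.52% and 2.96% of all genes. For Q140 against its control on the separate WT, Ccdc82+/- and Ccdc82-/- genotypes, 0 of 34 were called, beside 0.0313%, 0.0313% and 0.0209% of all genes. An unadjusted p under 0.05 was found for 3, 1 and 3 genes, beside 6.93%, 5.18% and 4.17% of all genes, and DESeq2 called 0.

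Of the 14 comparisons made, that of females with males held the most calls among the 34 genes. Between the 23 females and 24 males, 6 of 34 genes were called, 5 higher in females and 1 lower, beside 10.5% of all genes tested (5.27% higher, 5.26% lower). At an unadjusted p under 0.05 there were 10 of 34, beside 26% of all genes, so that the share is near that of all genes. Values were above 0 for 26 of the 34 genes, with a median of 0.026, where all genes had 50.7% above 0 and a median of 0.0010.

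Fcrls, an Fc receptor-like surface protein that marks microglia in mice (chromosome 3, 87250758 to 87263738), had the largest difference. It ranged from 15.7 to 22.1 CPM (median 18) in females and from 13.5 to 18.1 CPM (median 15.3) in males. The female mean was higher in 6 of 6 genotypes, and in 3 of them every female lay above every male (in Q140 by a narrow margin). The fitted difference was 0.25 (SE 0.0356, edgeR adjusted p = 3.71e-06), or 19.1%.

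Olfml3 (chromosome 3, 103722222 to 103738001) ranged from 11.1 to 16.9 CPM (median 13.7) in females and from 10.5 to 14.1 CPM (median 11.7) in males. Its female mean too was higher in 6 of 6 genotypes, without overlap in 3 (in Q140 Ccdc82-/- by a narrow margin). The difference was 0.23 (SE 0.0373, edgeR adjusted p = 5e-05), or 17.4%.

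Gpr34, a receptor for lysophosphatidylserine on the X chromosome (13632089 to 13640858), ranged from 8.7 to 12.3 CPM (median 10.6) in females and from 8.35 to 10.8 CPM (median 9.64) in males. Its female mean was higher in 6 of 6 genotypes, without overlap in 3 (in Q140 by a narrow margin). The difference was 0.15 (SE 0.0324, edgeR adjusted p = 0.0027). Gpr34 lies within Cask on the opposite strand. The library kit kept strand, but no source states whether the counting used it, so reads of Cask could be counted for Gpr34. Other genes of the set overlap annotated genes as well. Among them, Ctss, Ctsd and Itgam do so on the same strand, and Cx3cr1 and Csf1r on both strands. What these overlaps do to the counts was not tested.

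Ctsd ranged from 163 to 189 CPM (median 172) in females and from 154 to 179 CPM (median 167) in males. The female mean was higher in 6 of 6 genotypes, though the sexes overlapped in all of them. The difference was small, at 0.06 (SE 0.0154, edgeR adjusted p = 0.00787), or 4.32%. Itgam ranged from 5.31 to 7.32 CPM (median 6.32) in females and from 5.36 to 6.87 CPM (median 5.94) in males. Its difference was 0.10 (SE 0.0313, adjusted p = 0.0405), and the sexes were apart in Ccdc82+/- alone, at 6.89 to 7.32 CPM in females against 5.9 to 5.96 in males.

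Mpeg1 was the 1 gene called lower in females. It ranged from 23.4 to 27.5 CPM (median 24.6) in females and from 21.5 to 28.8 CPM (median 26.3) in males. The male mean was higher in 5 of 6 genotypes, Ccdc82-/- being the exception, and in 2 every male lay above every female. The difference was -0.08 (SE 0.0203, edgeR adjusted p = 0.00709). The genes described between the sexes were picked by the test on these same mice. The share of all genes without overlap in a genotype was not counted.

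**Figure D4:**
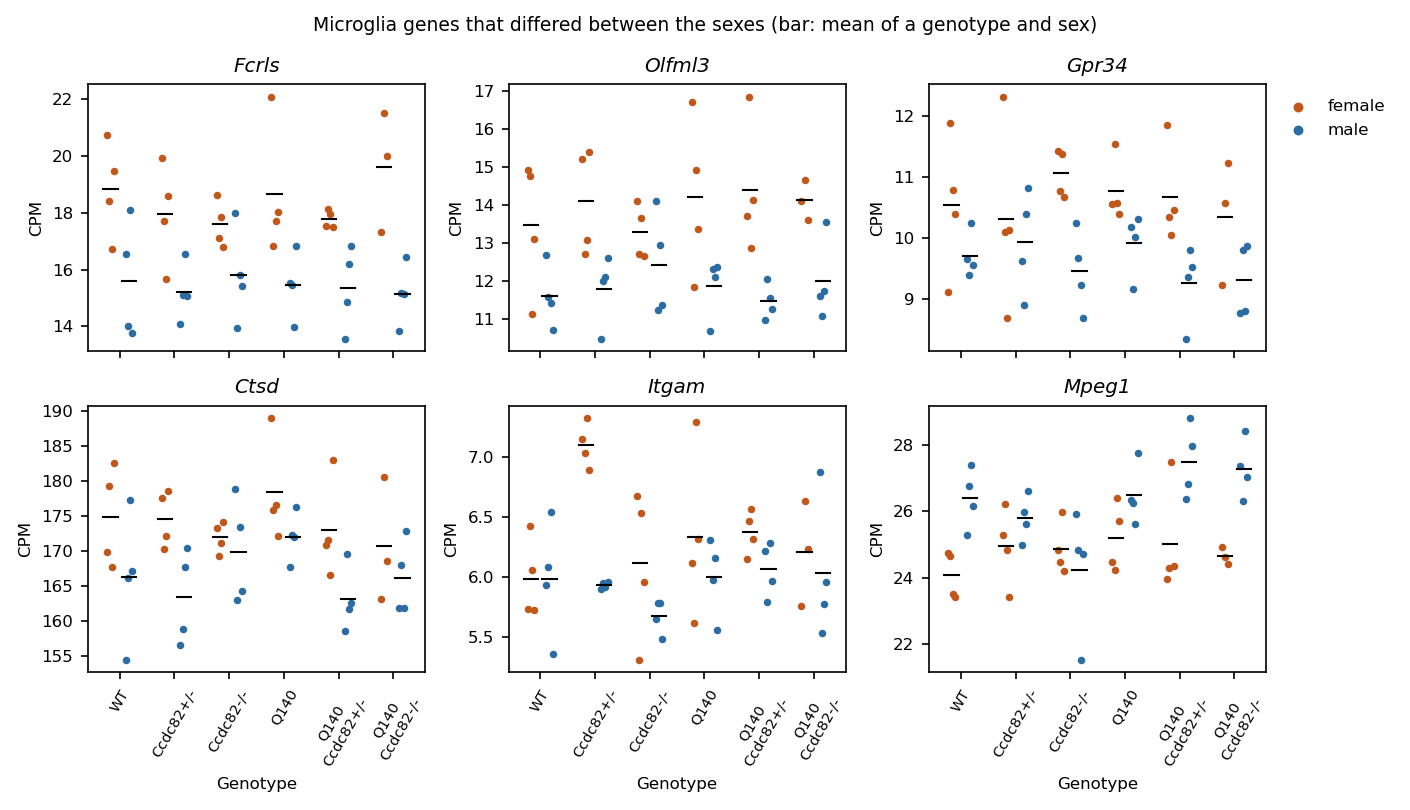
CPM (vertical axes, not starting at 0) of the 6 genes called between the sexes, in single mice by genotype, females in orange and males in blue, with a bar at the mean of each genotype and sex. Females stand higher for Fcrls, Olfml3, Gpr34, Ctsd and Itgam, and males for Mpeg1, with overlap in most genotypes.

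Other identity genes did not differ enough for a call. Tmem119 had a difference of 0.08 (SE 0.0321, edgeR adjusted p = 0.102), Csf1r 0.03, Cx3cr1 0.02, Siglech, a lectin of microglia, 0.00, and P2ry12 -0.02. C1qb and C1qa differed by 0.08 and 0.06 (adjusted p = 0.0834 and 0.115), C1qc by 0.04 and Cd33, an inhibitory lectin, by -0.08 (adjusted p = 0.0909). Ctss differed by -0.02 (SE 0.0202). The female to male difference thus ran from 0.25 to -0.08 within the identity group alone.

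Fcrls, Olfml3, Gpr34, Ctsd and Mpeg1 remained called in the 9 alternative analyses and when any 1 of the 47 libraries was left out. With plate column in the fit they were called as well, and so was Cd33 (adjusted p = 0.0261). Itgam was lost in 5 alternatives, at adjusted p from 0.0606 to 0.129. It was also lost without any 1 of 19 libraries. In WT these were female 2 and male 4 (0.0504 and 0.0615), in Ccdc82+/- females 1 to 4 (0.061, 0.0574, 0.0593 and 0.0519) and males 1 to 4 (0.0611, 0.0603, 0.0525 and 0.0559), and in Ccdc82-/- females 1 and 3 and male 4 (0.0623, 0.0595 and 0.0505). In Q140 they were female 3 and male 4 (0.0661 and 0.0559), in Q140 Ccdc82+/- male 2 (0.0532), and in Q140 Ccdc82-/- female 2 and males 2 and 3 (0.0519, 0.0559 and 0.0533).

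Markers of other cells differed between the sexes too. All 12 markers of border-associated macrophages were above 0, with a median of 0.19 and 2 called (Clec10a and Stab1), and their sum ranged from 4.73 to 7.23 FPKM in females and from 3.53 to 6.57 FPKM in males. Endothelial markers were above 0 for 4 of 4 genes, with Cldn5 and Flt1 called, and red blood cell markers for 0 of 5, with 0 called. Of 5 neuron markers 1 was above 0, and Gad1, which makes the transmitter GABA, was called lower in females, at -0.06 (SE 0.015, edgeR adjusted p = 0.00563). Over all genes 10.5% were called between the sexes, 5.27% higher in females and 5.26% lower. The part of these cells in the differences of the microglia genes was not tested. The library names carry 19 numbers whose meaning the labels do not give, 10 of them on females and 9 on males and 0 on both, so what they mark cannot be fully told apart from sex.

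The Q140 effect was compared between the sexes for all 34 genes, with 0 called beside 0.0% of all genes. An unadjusted p under 0.05 was found for 1, Ctss, beside 4.01% of all genes, and DESeq2 called 0. Spi1 came next, at -0.26 (SE 0.131, edgeR adjusted p = 1).

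Genes around these pathways were counted from lists, which hold some of the 34 genes as well. With Q140, 0 of 20 complement genes were called (16 above 0), 0 of 13 genes of the CSF1R, fractalkine, CD200 and TGF-beta signals (10 above 0), 0 of 16 genes of TREM2 and Fc receptor signalling (11 above 0), and 0 of 22 other homeostatic genes (12 above 0). Of 29 lysosomal genes 18 were above 0 and Ctss alone was called. Of 18 genes known to rise in disease-associated microglia, 10 were above 0 and 0 were called, and 0 of 14 cytokine and inflammation genes. The MHC class II list had 5 of 6 genes above 0, with a median of 0.30 and 0 called.

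In females against males the lists held called genes, named here because they passed, and each was higher in females. Cd59a, an inhibitor of the complement pore, was higher by 0.28 (SE 0.0634, edgeR adjusted p = 0.00358) and, with Itgam, made 2 of 20 complement genes. Il34, a neuronal ligand of the CSF1 receptor, was higher by 0.13 (SE 0.0225, adjusted p = 0.000246), while Csf1, the other ligand, differed by -0.01. Tgfbr1, a receptor for the TGF-beta that maintains microglia, was higher by 0.11 (SE 0.0270, adjusted p = 0.00656). The remaining calls were Lyn of 16 TREM2 and Fc receptor genes, Cd52 and B2m of 18 disease-associated genes, Tgfbr1 again with Slco2b1 and Rgs10 of 22 homeostatic genes, Ctsd and Hexa of 29 lysosomal genes, and Nlrp3 of 14 inflammation genes. Between the sexes 10.5% of all genes were called, 5.27% higher in females and 5.26% lower. The counts here were all of genes higher in females and lay above 5.27%, but each rests on few genes of a short list. Nothing is therefore read from them about the lists.

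Nlrp3, the sensor of the inflammasome, had the largest of these differences, at 0.91 (SE 0.174, adjusted p = 0.00062). MHC class II genes gave 0 calls of 6, with 5 above 0. In Ccdc82+/- and Ccdc82-/-, each averaged, 0 genes of these 8 lists were called.

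Linked genes were compared in pairs between mice after the means of genotype and sex were removed. They were parts of 1 complex, neighbouring genes or markers of the same state. Of 6 pairs, the 3 chains of C1q varied together most closely. C1qb and C1qc had a Pearson r of 0.764 over 47 mice (permutation p = 1e-05, adjusted over the 6 pairs 2e-05) and a Spearman rho of 0.793 (p = 1e-05, adjusted 3e-05). C1qa and C1qc had r = 0.621 (permutation p = 1e-05, adjusted 2e-05) and rho = 0.627 (p = 1e-05, adjusted 3e-05). C1qa and C1qb had r = 0.591 (permutation p = 1e-05, adjusted 2e-05) and rho = 0.55 (p = 7e-05, adjusted 0.00014). A p of 1e-05 is the smallest that the 100000 permutations can give.

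The 3 genes lie side by side on chromosome 4 within 136880129 to 136898803, minus strand. Without the 2 mice farthest from the median of the first gene, r was 0.732 for C1qb and C1qc, 0.614 for C1qa and C1qc, and 0.523 for C1qa and C1qb. With plate column also removed it was 0.733, 0.717 and 0.709. Within single plate columns of 7 or 8 mice r ran from -0.278 to 0.893, from 0.157 to 0.93, and from -0.783 to 0.906, so C1qb with C1qc and C1qa with C1qb did not hold in every column.

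P2ry12 and P2ry13, neighbouring purine receptor genes on chromosome 3, had r = 0.471 (permutation p = 0.00441, adjusted 0.00661) and rho = 0.464 (p = 0.0017, adjusted 0.00255). It was 0.404 without the 2 farthest mice, 0.419 with plate column removed, and 0.131 to 0.789 within columns. In mice with Q140 r was 0.0942 and in mice without it 0.667, and this difference was not tested, here or for the other pairs. For the C1q pairs the values with and without Q140 were 0.786 and 0.747 (C1qb and C1qc), 0.715 and 0.562 (C1qa and C1qc), and 0.598 and 0.593 (C1qa and C1qb). Both genes lie within Med12l on the opposite strand, with the same doubt on strand as for Gpr34.

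The other 2 pairs did not pass the test. Trem2 and its adaptor Tyrobp had r = 0.195 (permutation p = 0.272, adjusted 0.326) and rho = 0.213 (p = 0.14, adjusted 0.168), 0.333 without the 2 farthest mice. With plate column removed r was 0.106, and it was -0.281 to 0.449 within columns. In mice with Q140 it was -0.189 and in mice without it 0.436. P2ry12 and Tmem119, both markers of resting microglia, had r = 0.167 (permutation p = 0.346, adjusted 0.346) and rho = 0.185 (p = 0.244, adjusted 0.244). Their r was 0.284 without the 2 farthest mice, 0.231 with plate column removed, -0.734 to 0.838 within columns, 0.111 with Q140 and 0.211 without.

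**Figure D5:**
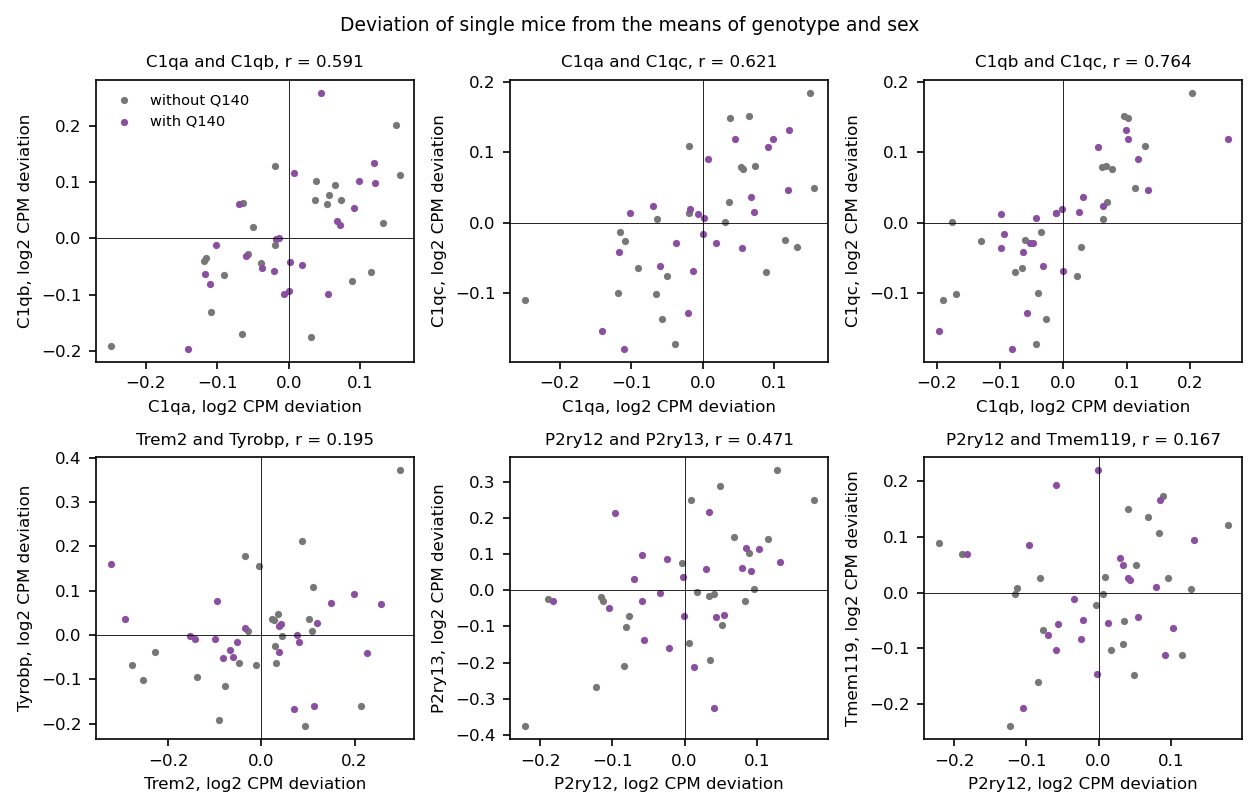
Deviation of single mice from the means of their genotype and sex, in log2 CPM on both axes, for 6 pairs of genes, with mice carrying Q140 in purple and others in grey. The C1q pairs run along the diagonal (r = 0.591 to 0.764), while Trem2 with Tyrobp (r = 0.195) and P2ry12 with Tmem119 (r = 0.167) form clouds.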

How the data were processed

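RNA was extracted from dissected cortex and made into stranded TruSeq libraries, per the labels' protocols. The deposited tables hold raw read counts and FPKM per gene, made by the authors; the tools STAR 2.7.5c, HTSeq 0.12.3 and SAMtools 1.10 and the build GRCm38 (mm10) stand in the submitters' processing notes. No source used here gives the annotation or the strand setting of the counting. Coordinates are from GENCODE M21 on GRCm38.

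Counts were tested in edgeR 4.0.16 (R 4.3.3) by the quasi-likelihood F test with TMM and robust fitting, over genes kept by filterByExpr (minimum count 10, minimum total 15), over all 47 libraries, with sex added to the 6 genotype means. The sex difference of the Q140 effect used genotype-by-sex means. P-values were adjusted by Benjamini-Hochberg over the 19174 genes, and a gene was called at an adjusted p under 0.05. Standard errors follow from the F statistic. Pairs of genes were compared on log2 CPM (prior count 2) in scipy 1.17.1 by 100000 permutations within genotype and sex, two-sided. Each library was taken as 1 mouse, since titles number them within genotype and sex; nothing else says how the samples were drawn, so p-values measure the spread between these samples. Between libraries of a genotype the chi-square per gene was at least 3.73 over 161 pairs, so none was a duplicate. The analysis was tested on simulated data.

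Alternatives were DESeq2 1.42.0, RLE factors, no filter, no sex term, plate column, plate row, a replicate block, a random block by library-name number (limma 3.58.1 voom), 2 surrogate variables (sva 3.50.0), limma-trend on log2(FPKM + 0.1), the compared groups alone, and each library left out. The random block for the sex difference of the Q140 effect was added after seeing the data.

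The 34 genes and the lists were chosen with earlier results of these data known; the 5 roles were assigned after values were seen. Full values were to be given for called genes, for the 3 genes with the smallest p in each of 4 averaged comparisons, and for examples of each role.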

Additional observations from a re-analysis of the deposited data

Results flagged for a closer look

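Within genotypes, 14 of the 204 sets of 1 gene in 1 genotype had a mouse far from the others by Dixon's criterion, of which chance gives about 5%. Cst3 was high in WT male 3 (641 CPM, the next 526), in Ccdc82-/- male 3 (572, the next 504) and in Q140 Ccdc82+/- female 4 (539, the next 488). Tyrobp was high in WT male 3 (7.97 CPM, the next 6.4) and low in Q140 Ccdc82-/- male 2 (5.58, the next 6.31). C1qb was high in Q140 Ccdc82+/- female 4 (29.6 CPM, the next 25.2), and Mpeg1 was low in Ccdc82-/- male 3 (21.5, the next 24.2). WT male 3, Ccdc82-/- male 3 and Q140 Ccdc82+/- female 4 each appear for 2 of these genes.

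Cd68 was high in Ccdc82+/- female 1 (7.69 CPM, the next 6.2) and low in Q140 female 4 (4.95, the next 5.68). Itgam was high in Q140 female 3 (7.29 CPM, the next 6.32), and Ctsd in Q140 female 1 (189 CPM, the next 177). P2ry6 was high in Ccdc82+/- male 3 (2.02 CPM, the next 1.52), Selplg, the ligand of P-selectin, in Ccdc82+/- female 4 (25.6, the next 22.2), and Inpp5d, a phosphatase that dampens signals of TREM2 and Fc receptors, was low in Q140 Ccdc82-/- female 1 (12.4, the next 14.5).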

How the results depend on the processing

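Among the called genes, no direction turned under any alternative run. With Q140 averaged, 0 of 34 genes were called without the filter, with plate row and under the replicate block, where Ctss had adjusted p = 0.05, 0.091 and 0.0559; the cause was not tested. Ctss remained called in the other 7 alternatives, and leaving out each library gave 0 to 1 called genes. Between the sexes the count was 5 or 6 in the 9 alternatives and 5 to 9 when each library was left out. Itgam was lost without the filter (0.0858), with plate column (0.0606), with plate row (0.105), with the library-name block (0.129) and on FPKM (0.0721). The other 12 comparisons gave 0 called genes in each alternative run; single libraries were not left out of them. Mice of a sex with the same title number did not deviate together (mean r -0.019 over 115 pairs, 6 of them over 0.1), so the title numbers do not pair the mice, and the replicate block changed no other call. Libraries sharing a library-name number deviated together more, at a mean r of 0.00789 over 45 pairs, 9 of them over 0.1. For other libraries of the same sex it was -0.049 over 484 pairs, 18 of them over 0.1. The main fit took all libraries as independent, while the random block allowed for this (correlation 0.142). The 6 pairs stayed on their side of the threshold with plate column removed and without the 2 farthest mice (largest adjusted p of a called pair 0.0291). At 58 to 101 counts, P2ry6 is the gene that depth limits most.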
